A study of Arabidopsis thaliana with 16 samples.

Results

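The genes described are 10 components of the DNA replication machinery of Arabidopsis thaliana: the 6 subunits of the MCM2-7 helicase, both copies of the sliding clamp PCNA, and the large subunit and 1 small subunit of ribonucleotide reductase (RNR). They were found on the Affymetrix ATH1 array by their AGI gene codes among 23616 genes that its probe sets name. MCM2 (AT1G44900), MCM3 (AT5G46280), MCM4 (AT2G16440), MCM5 (AT2G07690), MCM7 (AT4G02060), PCNA1 (AT1G07370), PCNA2 (AT2G29570), RNR1 (AT2G21790) and TSO2 (AT3G27060) each had 1 probe set, which named no other gene. No probe set named MCM6 (AT5G44635), so 9 of the 10 genes were measured.

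RNA came from fully expanded rosette leaves, on 2 arrays for each of 8 groups. Col-0 wild-type plants (WT) were compared with FG plants, 1 homozygous line obtained by crossing that carries both pHSP::FT and pHSP:GFP, in which the heat-inducible HSP17.4 promoter drives the florigen gene FT and green fluorescent protein. Plants of 20 days flew on the SJ-10 satellite for about 12 days and 15 h (space, sp) or stayed in a matching growth unit (ground, gr), under long days (LD, 16 h of light and 8 h of dark) or short days (SD, 8 h of light and 16 h of dark), and the flown plants were fixed after landing, so the samples also span the landing. Plants of both genotypes under the SD, in space and on the ground, were briefly heated early in the flight and those under the LD were not, so SD and heating cannot be told apart. There was 1 flight unit and 1 ground unit, and each treatment took 4 leaves from a pair of plants, so p-values measure only the spread between these arrays, which may be technical. FT itself was called present in FG on both ground arrays under the LD (signals of 296 and 717) and under the SD (178 and 812), on both space arrays under the SD (73.5 and 206), and on neither space array under the LD (75.9, marginal, and 8.30, absent). It was called present on no WT array.

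The MCM2-7 complex is the replicative helicase: it is loaded as a ring on replication origins before S phase and unwinds the DNA at the fork. PCNA is the ring that tethers DNA polymerases to their template. RNR turns ribonucleotides into deoxyribonucleotides and so sets the supply of DNA building blocks. In leaves these genes are known as markers of S phase, both in dividing cells and in cells that copy their genome without dividing (endoreduplication), and many are targets of the E2F transcription factors. In whole leaves, fewer cells of a type and less RNA per cell cannot be told apart.

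Under the LD, RNR1 rose in space in both genotypes and TSO2 in WT, and most other members were close to or below detection on the ground. With low signals raised to the floor, RNR1 was 3.53-fold higher in WT and 4.76-fold higher in FG, and TSO2 was 3.43-fold higher in WT. Under the SD no member passed the test in either genotype. The difference between the daylengths itself passed for TSO2 and for no other member, so RNR1 was not shown to differ by daylength. The values below are MAS5 signals, in which a present, marginal or absent call states whether the probes that match the gene stood above their mismatch probes. For tests, signals under 75 were raised to 75, and a gene was called where limma's Benjamini-Hochberg adjusted p over the 14286 probe sets tested was under 0.05 and the difference at least 2-fold.

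Detection alone separated the groups under the LD. Over the 9 measured genes, 9 of 36 calls were present on the LD ground arrays (25.0%) and 31 of 36 on the LD space arrays (86.1%), while over all probe sets the present share was 53.8% and 59.2%. Under the SD, WT had 5 of 18 present calls on the ground and 15 of 18 in space, where all probe sets had 54.1% and 58.3%. FG had 7 of 18 and 6 of 18, where all probe sets had 52.4% and 56.7%. The SD space group of FG was uneven, with 1 gene present on replicate 1 and 5 on replicate 2, and so was its ground control, with 2 and 5. Each of the other 3 space groups had 7 or 8 genes present on every array.

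**Figure D1:**
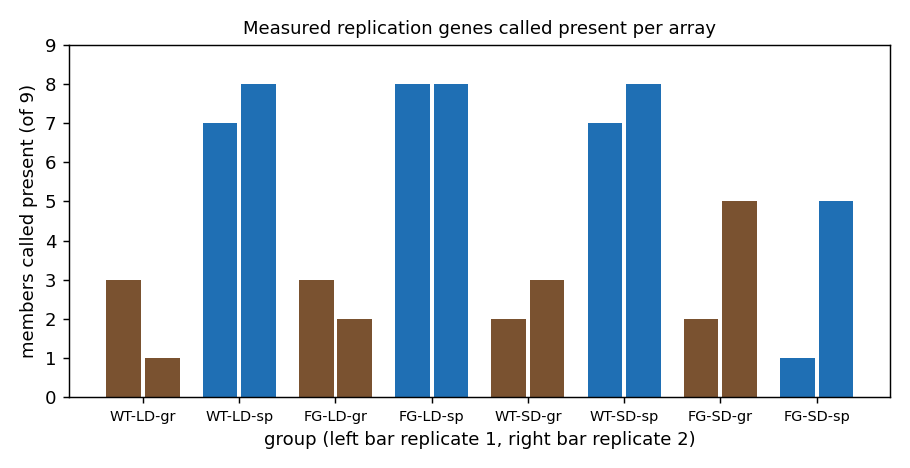
Number of the 9 measured replication genes called present on each array (vertical axis), for the 8 groups (horizontal axis; brown, ground; blue, space; left bar, replicate 1). The LD space arrays and the WT SD space arrays reach 7 or 8, the LD ground arrays 1 to 3, and FG under the SD is uneven in both environments.

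RNR1, the large subunit that holds the catalytic site of ribonucleotide reductase, was called in both genotypes under the LD. Its signals in WT under the LD were 136 and 12.7 on the ground (the second absent) and 349 and 366 in space. In FG under the LD they were 75.4 and 41.3 on the ground (the second absent) and 284 and 451 in space. Every LD space array was above every LD ground array, and only 1 of the 2 ground arrays of each genotype had a present call. The log2 fold change was 1.82 ± 0.42 (SE, n = 2 against 2, limma adjusted p = 0.0147) in WT and 2.25 ± 0.42 (limma adjusted p = 0.00751) in FG, and 2.04 ± 0.30 (limma adjusted p = 6.83e-04) with the genotypes averaged. The size depends on the floor, to which 1 ground array of each genotype was raised. With no floor RNR1 was 8.59-fold higher in WT (limma adjusted p = 0.0435) and 6.41-fold higher in FG (limma adjusted p = 0.0766), where it was then not called.

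Under the SD, RNR1 read 47.0 and 69.2 in WT on the ground, both absent, and 238 and 187 in space. It read 58.6 (absent) and 123 in FG on the ground and 74.3 (marginal) and 171 in space. The WT groups did not overlap and the FG groups did. In WT the space group was at least 2.82-fold above the floor of the ground group, but with a limma adjusted p of 0.0914 it was not called, and in FG the log2 fold change was 0.24 ± 0.42 (limma adjusted p = 0.86). The spaceflight difference of RNR1 under the SD minus that under the LD was not called. It was -0.33 ± 0.60 in WT (limma adjusted p = 0.888) and -2.01 ± 0.60 in FG (limma adjusted p = 0.149). With the genotypes averaged it was -1.17 ± 0.42 (limma adjusted p = 0.145). By mean signal after flooring, the order over the 8 groups was FG-LD-sp (368 ± 118, SD, n = 2), WT-LD-sp (357 ± 11.7), WT-SD-sp (213 ± 36.3), FG-SD-sp (123 ± 68.2), WT-LD-gr (106 ± 43.5), FG-SD-gr (98.9 ± 33.8), FG-LD-gr (75.2 ± 0.258) and WT-SD-gr at the floor. The arrays of both LD space groups lay above those of WT-SD-sp, and from FG-SD-sp downward neighbouring groups differed by less than their spread.

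TSO2, the small RNR subunit named for a mutant with disordered floral and leaf tissue, was present on all 16 arrays and above the floor in all 8 groups, so its values do not depend on the floor. In WT under the LD it read 215 and 191 on the ground and 789 and 615 in space. In FG under the LD it read 190.1 and 257 on the ground and 387 and 574 in space. Neither genotype's groups overlapped. By mean signal the order over the 8 groups was WT-LD-sp (702 ± 123, SD, n = 2), FG-LD-sp (481 ± 132), FG-SD-gr (364 ± 162), WT-SD-sp (314 ± 0.405), WT-SD-gr (296 ± 56.9), FG-LD-gr (224 ± 47.3), FG-SD-sp (217 ± 54.8) and WT-LD-gr (203 ± 17.1), and from FG-LD-sp downward neighbours overlapped or differed by less than their spread. The log2 fold change was 1.78 ± 0.34 (limma adjusted p = 0.00675) in WT and 1.09 ± 0.34 (limma adjusted p = 0.0539) in FG, where it was not called, and 1.44 ± 0.24 (limma adjusted p = 0.00151) with the genotypes averaged.

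Under the SD, TSO2 read 336 and 255 in WT on the ground and 314 on both space arrays, so the space values lay between the ground values. In FG it read 249 and 478 on the ground and 256 and 178 in space, and these ranges overlapped. The log2 fold changes were 0.10 ± 0.34 (limma adjusted p = 0.926) in WT and -0.69 ± 0.34 (limma adjusted p = 0.371) in FG. The spaceflight difference under the SD minus that under the LD, averaged over the genotypes, was -1.73 ± 0.34 (limma adjusted p = 0.0197), which was called. TSO2 was the 1 member called in this test, of 8, where 4.36% of all probe sets tested were called. The difference was negative without each array in turn (-1.97 to -1.50). The call was lost, with limma adjusted p of 0.0513, 0.0516, 0.0575 and 0.06 in that order, without WT-LD-sp replicate 1, WT-SD-sp replicate 1, WT-SD-sp replicate 2 or FG-LD-sp replicate 2, and over 27 alternatives fitted with limma the adjusted p ran from 0.00925 to 0.06.

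**Figure D2:**
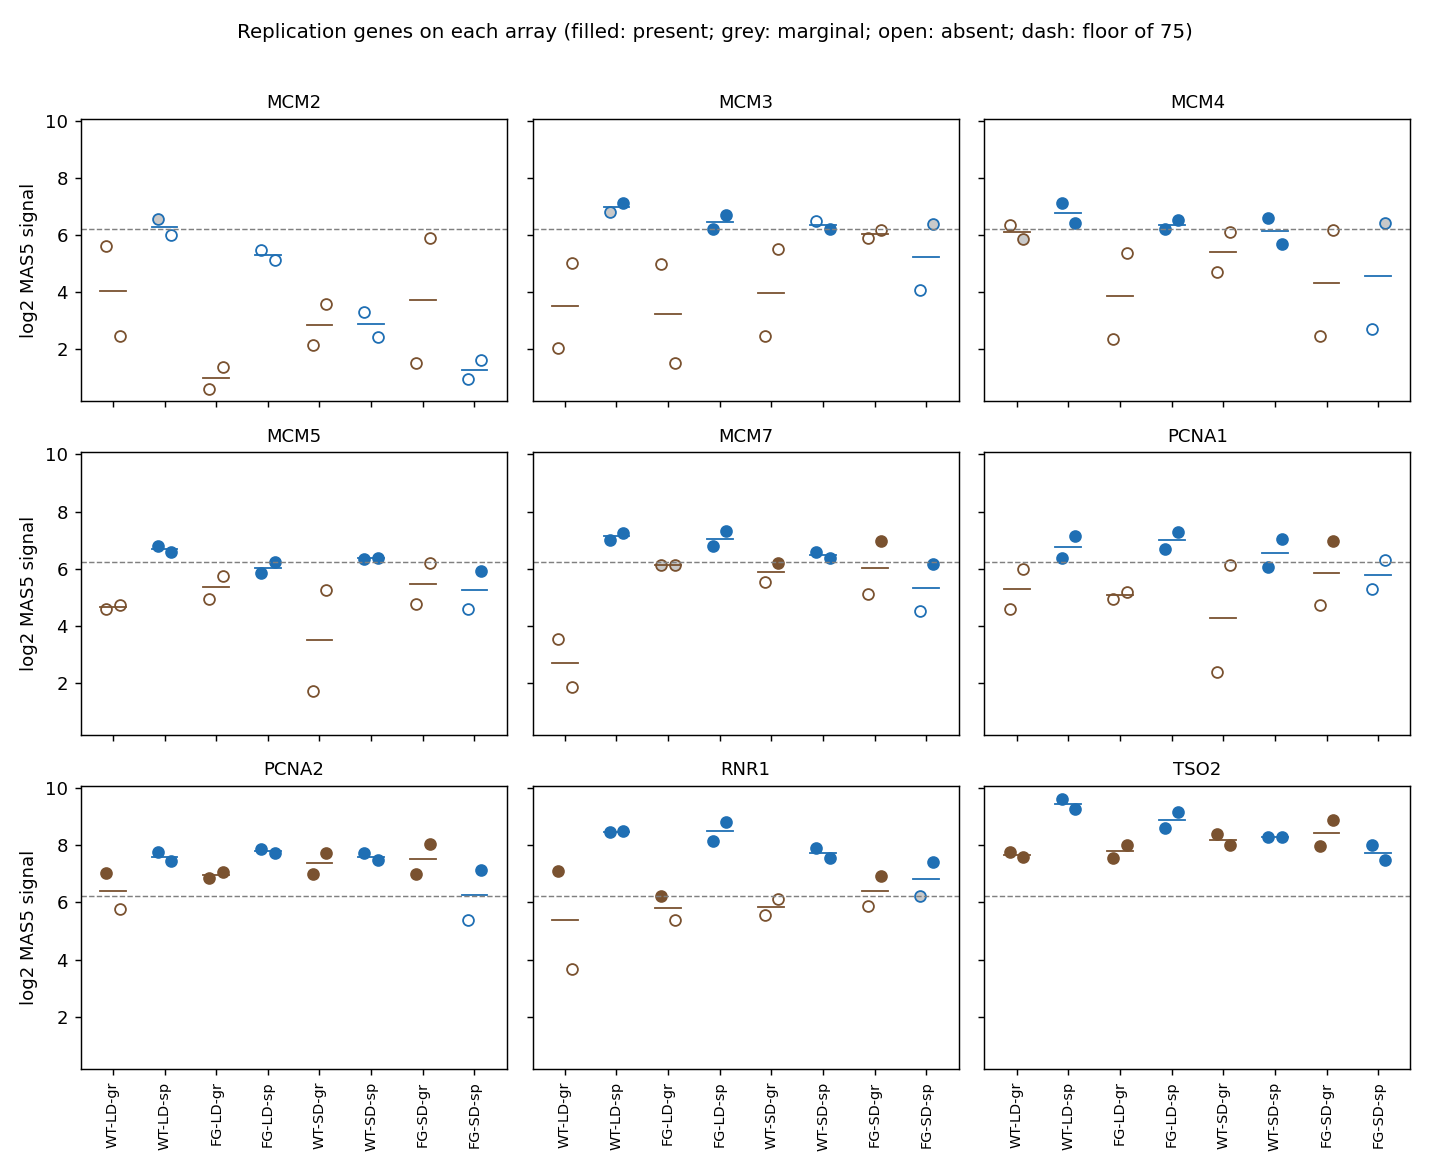
log2 MAS5 signal of the 9 measured replication genes (1 panel each) on every array, by group. Filled points were called present, grey marginal and open absent, short lines are means of 2 arrays, and the dashed line is the floor of 75. RNR1 and TSO2 have their highest values on the LD space arrays, and MCM2 was called present on none.

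PCNA2, 1 of the 2 clamp genes, was above the floor on 14 arrays. It read 129.7 and 54.1 (absent) in WT and 115 and 133 in FG on the ground under the LD, and 216 and 176 in WT and 232 and 213 in FG in space. All 4 space arrays lay above all 4 ground arrays. The averaged log2 fold change was 0.92 ± 0.30 (limma adjusted p = 0.0347), which passed the adjusted p and fell short of 2-fold. Under the SD, PCNA2 read 129 and 211 in WT and 128 and 262 in FG on the ground, against 211 and 177 in WT and 42.1 (absent) and 141 in FG in space, and the ranges overlapped. The log2 fold change in FG was -0.83 ± 0.42 (limma adjusted p = 0.375).

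PCNA1, the other clamp gene, was absent on all 4 LD ground arrays, at 24.3 and 63.9 in WT and 30.4 and 36.8 in FG. It was present on all 4 LD space arrays, at 82.2 and 141 in WT and 103 and 156 in FG. Taken as bounds, these were at least 1.44-fold in WT and at least 1.70-fold in FG, and neither passed the test (limma adjusted p of 0.33 and 0.173). Under the SD it was present on both WT space arrays (66.6 and 131), on 1 ground array (FG replicate 2, 125) and on neither FG space array (39.2 and 78.9).

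MCM7, also known as PROLIFERA, was the helicase subunit present most often, on 9 arrays. Under the LD on the ground it read 11.8 and 3.63 in WT, both absent, and 70.4 and 69.4 in FG, both marginal. In space it read 129.7 and 153 in WT and 110.3 and 159 in FG, all present and all above the ground arrays. The space signals were at least 1.88-fold above the floor in WT (limma adjusted p = 0.035) and at least 1.77-fold in FG (limma adjusted p = 0.0571), and the average over the genotypes was at least 0.87 on the log2 scale (limma adjusted p = 0.00522). Under the SD its signals were 46.9 (absent) and 73.7 in WT and 34.3 (absent) and 125 in FG on the ground, and 97.3 and 84.0 in WT and 23.0 (absent) and 71.2 in FG in space.

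The remaining helicase subunits were read near the floor. MCM3 was absent on all 8 ground arrays, at 2.85 to 72.0, and its LD space signals were 111 (marginal) and 140.0 in WT and 74.4 and 104 in FG. That put WT at least 1.66-fold above the floor (limma adjusted p = 0.0376), below the fold threshold, and gave an average over the genotypes of at least 0.49 on the log2 scale (limma adjusted p = 0.0309). MCM5 was absent on every ground array as well, and its LD space signals were 109.8 and 97.0 in WT and 58.1 and 74.5 in FG, all present. MCM4 was present on no ground array and read 139.9 and 85.6 in WT and 74.6 and 90.9 in FG in space under the LD, against 81.4 (absent) and 57.9 (marginal) in WT and 5.22 and 41.8 (both absent) in FG on the ground, and it did not pass the test in any comparison. MCM2 was called present on no array, with 1 marginal call (94.7, WT-LD-sp replicate 1), and it was not tested.

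Of the 9 measured genes, 8 exceeded the floor on each array of 1 or more groups and entered the tests. MCM3 and MCM4 entered through WT-LD-sp alone, PCNA1 through both LD space groups alone, and MCM5, MCM7 and RNR1 through space groups alone, so counts over the tested members lean toward space by construction. In the LD comparison of space with ground, 2 of 8 members were called in WT (RNR1 and TSO2, both higher) where 16.7% of all probe sets tested were called, and 1 of 8 in FG (RNR1) where 14.0% were. With the genotypes averaged, RNR1 and TSO2 were called, where 20.8% of all probe sets were. At these numbers the share of members called was near that of the array. The RNR1 call in WT was lost without WT-LD-gr replicate 2 (limma adjusted p = 0.102), WT-LD-sp replicate 1 (0.0667) or WT-LD-sp replicate 2 (0.089), that of TSO2 in WT when WT-LD-sp replicate 1 was left out (0.0518), and that of RNR1 in FG when FG-LD-sp replicate 2 was left out (0.0725). Over the 27 alternatives the adjusted p for RNR1 ran from 0.00427 to 0.102 in WT and from 0.00312 to 0.0766 in FG, and for TSO2 in WT from 0.0011 to 0.0518. With the genotypes averaged, both were called under all 27 alternatives.

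A count free of the filter and the floor used the deposited signals of all 9 measured genes. Under the LD, 7 of 9 (MCM3, MCM5, MCM7, PCNA1, PCNA2, RNR1 and TSO2) had all 4 space arrays above all 4 ground arrays, where 14.5% of all 22746 probe sets did. MCM4 and MCM2 overlapped through WT-LD-gr replicate 1. Under the SD, 0 of 9 did, where 7.13% of all probe sets did. Without FG-SD-sp replicate 1 the SD count was 2, and without FG-SD-gr replicate 2 it was 1. The SD count pools the genotypes, so overlap in FG alone can set it. In WT alone under the SD, MCM3, MCM5, MCM7 and RNR1 had both space arrays above both ground arrays. Apart from RNR1 their space signals there were near the floor, and the share of all probe sets in WT alone was not counted. Without that share, these names do not show that members separated more often than the array did. The LD count stayed between 7 and 9 without each array in turn. It too includes low signals. In FG under the LD, MCM5 read 58.1 and 74.5 in space and 30.9 and 53.3 on the ground, all under the floor. MCM3 in FG had 1 LD space array under the floor (74.4).

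**Figure D3:**
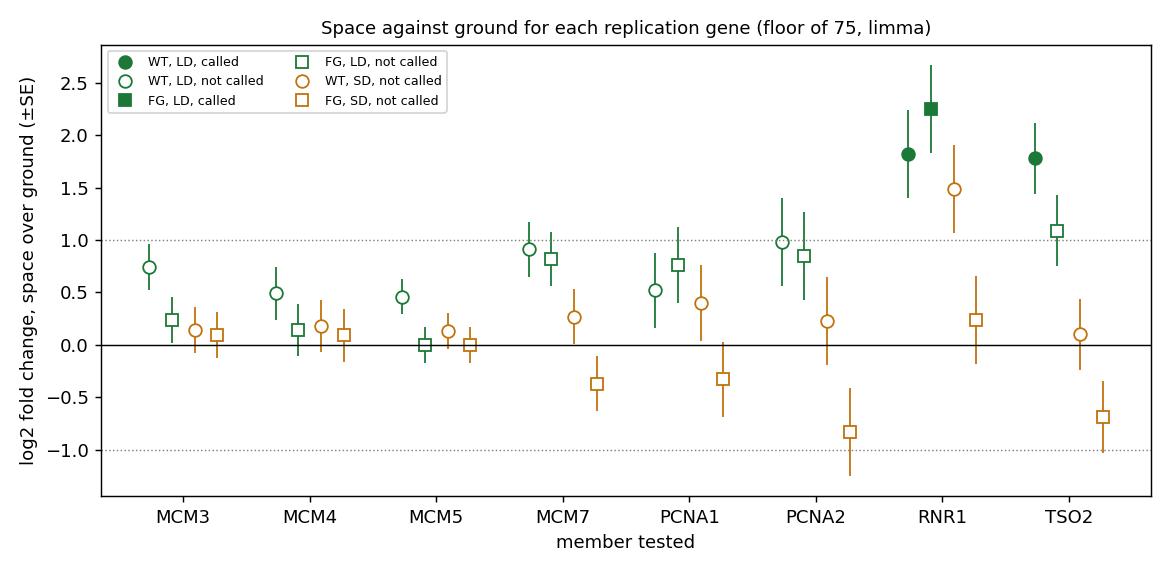
log2 fold change of space over ground with its SE for the 8 members tested (signals floored at 75), in WT (circles) and FG (squares) under LD (green) and SD (orange). Filled symbols were called, and dotted lines mark 2-fold. Calls are RNR1 in both genotypes and TSO2 in WT, all under LD.

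In the SD comparison of space with ground, 0 of 8 members were called in WT, FG or the genotype average, where 1.87%, 0.917% and 5.51% of all probe sets were called. At an unadjusted p under 0.05 the limma counts were 1 (RNR1), 0 and 1 (RNR1), and the separate test of each probe set at a raw p called 1 in WT and 0 in FG (0 after Benjamini-Hochberg). The shares of all probe sets at these unadjusted thresholds are not given here. Without FG-SD-sp replicate 1 the RNR1 averaged log2 fold change of 1.17 passed (limma adjusted p = 0.0376, over a range of 0.0118 to 0.28). The averaged log2 fold changes under the SD were 0.87 ± 0.30 for RNR1, a bound in WT, and -0.30 for both PCNA2 and TSO2. Those of MCM4, MCM5, MCM7 and PCNA1 lay between -0.05 and 0.14. For these, 1 or both groups of each genotype lacked a present call above the floor, so values near 0 do not show an absence of change. MCM3 had no present call above the floor under the SD. In WT under the SD the median of all probe sets was 0.11. With each array centred on its median, RNR1 there was at 1.42 and TSO2 at -0.08.

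Comparisons within 1 environment gave no member calls. In space, SD against LD called 0 of 8 members in WT and in FG, where 2.78% and 4.15% of all probe sets were called. At an unadjusted limma p under 0.05 there were 3 members in WT and 4 in FG. The share of all probe sets at that looser threshold is not given here, so these counts cannot be set against the array. RNR1 was lowest in FG at -1.66 ± 0.42 (limma adjusted p = 0.0523), and TSO2 was -1.15 ± 0.34 in WT (limma adjusted p = 0.115) and -1.14 ± 0.34 in FG (limma adjusted p = 0.0862). By the deposited signals, 4 of 9 genes (MCM2, MCM7, RNR1 and TSO2) had all 4 LD space arrays above all 4 SD space arrays, where 12.1% of all probe sets did, although MCM2 was not detected. On the ground, SD against LD called no member (0 at an unadjusted limma p under 0.05), where 0.0210% of all probe sets were called in WT and 0% in FG. TSO2 differed there by 0.53 ± 0.34 in WT and 0.64 ± 0.34 in FG.

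No member was called between FG and WT. At an unadjusted limma p under 0.05 there were 2 (MCM3 and MCM5, in space under the LD), without a share of all probe sets at that threshold. On the ground the share of all probe sets called was 0.0280% under the LD and 0.0140% under the SD, and in space it was 0.00700% and 0.0140%. In space under the SD, FG minus WT was -0.90 ± 0.42 for RNR1 and -0.91 ± 0.42 for PCNA2 (limma adjusted p = 1 for both). The difference between the genotypes in the spaceflight response called no member under the LD or the SD, where 0.0350% and 0% of all probe sets were called. Under the SD its estimate was -1.25 ± 0.60 for RNR1 and -1.06 ± 0.59 for PCNA2 (limma adjusted p = 1). The daylength difference within 1 genotype called no member either, where 0.672% of all probe sets were called in WT and 0.840% in FG. At an unadjusted limma p under 0.05 it had 1 member in WT and 4 in FG. The share of all probe sets at that threshold is not given here, so these counts cannot be set against the array. TSO2 was at -1.68 ± 0.49 in WT and -1.79 ± 0.49 in FG (limma adjusted p of 0.173 and 0.128).

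Members varied together to differing degrees. Over the 16 arrays, the Pearson correlation of floored log2 signals between 2 members had a median of 0.65 in 28 pairs, from 0.05 for MCM4 with PCNA1 to 0.90 for MCM7 with TSO2. These arrays share their scaling and the space and ground groups, so the values are descriptive. The 10 probe sets outside the members whose profile was most like the members' mean profile over the 16 arrays were those of IAA1 (AT4G14560), an auxin-inducible repressor (r = 0.95), AT3G59390 (0.93), AT1G19710 (0.93), AT3G55580 (0.92), and, at 0.91, ETG1 (AT2G40550), LRR1 (AT5G16590), DUT1 (AT3G46940), ASN2 (AT5G65010), ATDFD (AT3G55630) and UNE15 (AT4G13560). ETG1, an MCM-binding protein, and DUT1, which removes dUTP from the nucleotide pool, were also on the lists of replication genes below.

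Other replication genes were taken from lists by role, 49 genes in all. In nucleotide supply, 3 of 5 probe sets tested were called higher in space in WT under the LD and 2 of 5 in FG, where 10.9% and 9.46% of all probe sets were called higher. RNR2A (AT3G23580), another RNR small subunit, read 458 and 285 in WT and 492 and 613 in FG on the ground, and 1429 and 1144 in WT and 1295 and 1229 in FG in space, with no overlap. Its log2 fold change was 1.82 ± 0.27 in WT (limma adjusted p = 0.00194) and 1.20 ± 0.27 in FG (limma adjusted p = 0.0155), and under the SD it was 0.14 ± 0.27 and -0.32 ± 0.27. DUT1 was at least 1.31 and 1.12 higher on the log2 scale in WT and FG, being absent on all 4 LD ground arrays and at 153 to 194 in space. TK1B (AT5G23070), a thymidine kinase of the salvage pathway, was called in WT at 1.32 ± 0.38 (limma adjusted p = 0.0347).

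Among the factors that load and start the helicase, ORC5 (AT4G29910), a subunit of the origin recognition complex, was called in WT under the LD (log2 fold change of 1.34 ± 0.37), as 1 of 3 probe sets tested for origin licensing. ETG1 was called in both genotypes, as 1 of 5 for helicase activation, with 59.6 (marginal) and 60.0 (absent) on the WT ground arrays and 222 and 269 in space. Of 6 polymerase probe sets, 0 were called in WT and 3 in FG: POLA3 (AT5G41880), of the primase, and POLD2 (AT2G42120) and POLD3 (AT1G78650), of polymerase delta, at bounds of 1.52, 1.01 and 1.05 on the log2 scale. None of these 3 was called in the test of the difference between FG and WT. In WT, POLD2 (at least 0.88, limma adjusted p = 0.0287) and POLD3 (at least 0.76, limma adjusted p = 0.0363) missed only the 2-fold threshold. POLA3 in WT was at 0.63 ± 0.37 (limma adjusted p = 0.25). Over all probe sets, 10.9% were called higher in space in WT under the LD and 9.46% in FG.

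Of 11 probe sets for the clamp loader, single-strand binding and maturation, 2 were called in each genotype under the LD, all higher in space. Over all probe sets, 10.9% were called higher there in WT and 9.46% in FG. RFC2 (AT1G63160), a subunit of the clamp loader that opens PCNA, was called in WT under the SD too, where its signals went from 79.4 (absent) and 108 to 269 and 279.9 (log2 fold change of 1.56 ± 0.26, limma adjusted p = 0.0238). Its daylength difference was -0.21 ± 0.26 (limma adjusted p = 0.685). RFC4 (AT1G21690), another loader subunit, was called in WT (1.50 ± 0.40) and FEN1 (AT5G26680), the flap endonuclease of Okazaki fragments, in FG (at least 1.16). No probe set of these 5 roles was called lower in space in any of the 4 comparisons. Few of all 14286 probe sets were: 827 in WT and 642 in FG under the LD, and 88 and 44 under the SD.

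**Figure D4:**
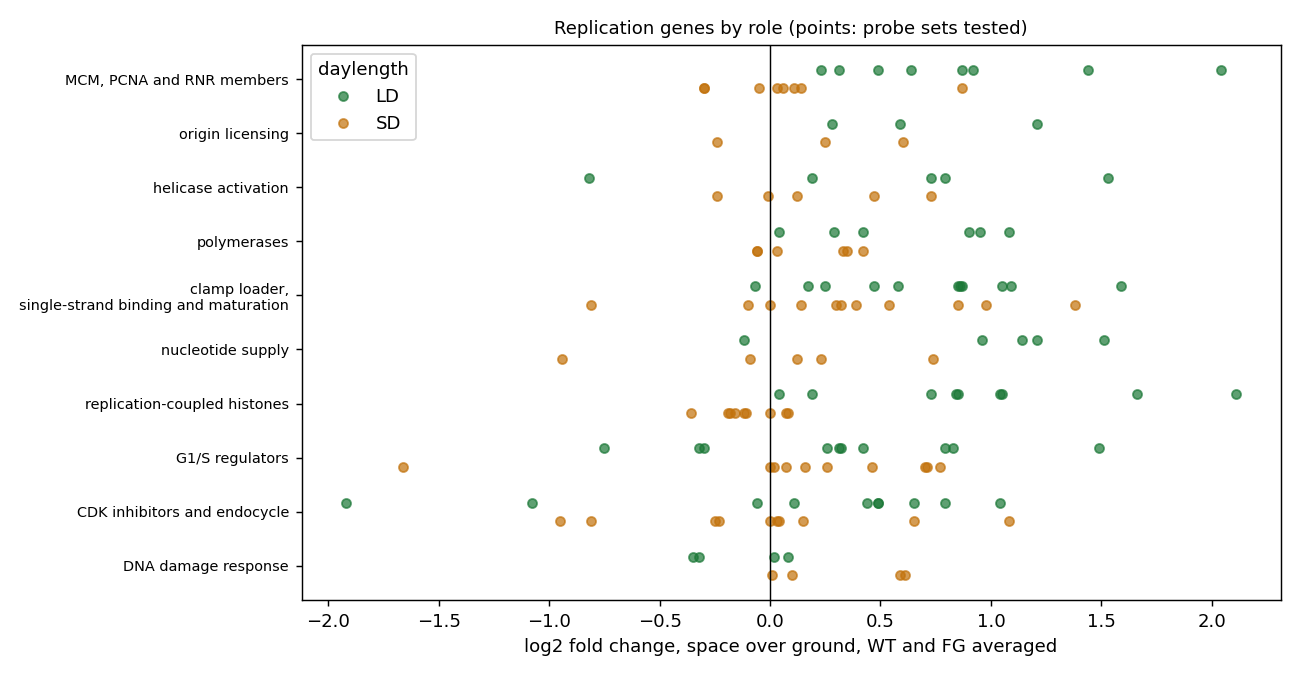
log2 fold change of space over ground with WT and FG averaged (horizontal axis) for every tested probe set of each list (rows), under LD (green) and SD (orange). RNR1 is at 2.04 under LD and 0.87 under SD, and TSO2 at 1.44 and -0.30. Of the 8 members, 6 passed the filter on low signals through space groups alone.

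Replication-coupled histones, which package new DNA in S phase, were called higher in space in WT for 3 of 9 probe sets and in FG for 2 of 9 under the LD, against the 10.9% and 9.46% of all probe sets. The H3.1 probe set of AT1G09200 went from 199 and 182 to 639 and 481 in WT and from 99.5 and 96.6 to 507 and 781 in FG, and that of AT5G10390 was called in both genotypes as well (1.63 ± 0.31 and 1.68 ± 0.31). H3.1 genes encode the same protein, so how these signals divide among the copies is uncertain. Under the SD none of the 9 was called. In FG under the SD, AT1G09200 read 146 and 398 on the ground and 88.2 and 111 in space.

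Mitotic genes, used here as markers of dividing cells, were mostly undetected. Of 16 such genes, 1 probe set passed the filter and it was not called, and present calls over the list made up 6 of 60 on the LD ground arrays and 6 of 60 on the LD space arrays. Of 10 probe sets for regulators of entry into S phase, RBR1 (AT3G12280), the retinoblastoma homologue that restrains E2F, was called higher in WT under the LD (1.86 ± 0.45, limma adjusted p = 0.0168). Among 10 probe sets for CDK inhibitors and the endocycle, KRP7 (AT1G49620) was called higher in WT (at least 1.15) and SIM (AT5G04470), a CDK inhibitor that acts in trichome endoreduplication, lower in FG (-2.14 ± 0.57, limma adjusted p = 0.031). Of 4 DNA damage response probe sets none was called. Over all probe sets under the LD, 10.9% were called higher in WT, and 642 of 14286 were called lower in FG. In either direction 16.7% were called in WT and 14.0% in FG. At these numbers the counts for the regulators, inhibitors and damage response were near those of the array.

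The tissue label was checked by marker genes. All 6 leaf markers were present on all 16 arrays, 0 of 7 shoot meristem and leaf primordium markers passed the filter (2 present calls over the 16 arrays, for KNAT1 and CUC2), and of 6 flower markers only PI passed. The summed leaf marker signal was 27798 to 76709 on the LD ground arrays and 97075 to 106624 on the LD space arrays, with no overlap. Under the SD it was 15104 to 98301 on the ground and 65672 to 90523 in space, which overlapped. RCA (AT2G39730), Rubisco activase, was called higher in WT under the LD (2.27 ± 0.68, limma adjusted p = 0.0412) and also in the SD average (1.76 ± 0.48, limma adjusted p = 0.0468), where no member was called. On FG-SD-gr replicate 2, the ground array with the most members present, the sum was 15104, the lowest of all. The part of these differences in the results was not tested.

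Array quality moved with the environment. The hybridisation spike-ins averaged 11.51 to 11.94 on the log2 scale on ground arrays and 11.06 to 11.25 on space arrays, present calls numbered 11818 to 13102 and 12620 to 13781, and the log2 difference between the 3′ and 5′ actin probe sets was 1.44 to 2.08 and 0.98 to 1.52. Scaled to the spike-ins, the median log2 fold change of all probe sets was 0.50 to 0.67 in the 4 comparisons of space with ground, against 0.05 to 0.11 as deposited, and RNR1 and TSO2 were called under the LD in both genotypes. Centred on the median of each array, the calls under the LD were again RNR1 and TSO2 in WT and RNR1 in FG. The part of RNA quality in the results was not tested.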

How the data were processed

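The authors hybridised leaf RNA to 16 ATH1 arrays and deposited log2 MAS5 signals with detection calls, scaled by them to a trimmed mean of 500 (2% off each end). The version of the package that ran MAS5 and the genome build are not given in the sources used here. The methods' floor of 75 is not in the deposited values and was applied here (log2 of 6.23). Of 22810 probe sets, 14286 exceeded it on both arrays of at least 1 group. They were fitted with limma 3.58.1 in R 4.3.3 (lmFit, eBayes), 1 mean per group, 8 residual and 2.75 prior degrees of freedom, with 19 contrasts and p-values adjusted by Benjamini-Hochberg over all 14286 probe sets within each contrast. The 64 control probe sets were not tested. Fold changes against a group in which neither array was both present and over the floor are bounds. Where that held for both groups, none is printed for 1 genotype with the floor of 75. Genotype averages and the figures include such pairs. The values of MCM3 in FG under the SD, printed for settings without that floor, are the exception. The number of arrays limits precision. The fit was tested on simulated data.

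The members and the gene lists were chosen with earlier results of these data known. All members are named, and from each list up to 4 genes with the largest change among those called in a comparison of space with ground in 1 genotype, by probe sets that name 1 gene, and the 10 most alike in profile. Of stomatal markers, 2 of 5 were tested and none was called within a genotype. FAMA (AT3G24140) was called lower in space in the SD average (-1.15 ± 0.29, limma adjusted p = 0.0329), where 5.51% of all probe sets were called. Its SD signals were 147 to 209 on the ground and 49.0 to 91.8 in space, with no overlap. All 10 loci matched a RefSeq locus tag. Alternatives varied the floor, filter, scaling, model and arrays. A 2-sided Student test of each probe set asked for a raw p below 0.05, 2-fold or more and 1 direction in both replicates. It stands in for the test of the study's array methods, which they do not name. They describe using the standard deviation of the ground control, while the Student test pooled the spread of both groups. The paper's results also state control of the false discovery rate at 0.05 by the method of Storey and Tibshirani, which was not applied here.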

Additional observations from a re-analysis of the deposited data

Results flagged for a closer look

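The spaceflight response differed between the daylengths, by a test of the difference itself (SD minus LD, genotypes averaged, limma), for TSO2 at -1.73 ± 0.34 (adjusted p = 0.0197). Of the replication genes outside the members, the same test passed for RNR2A at -1.60 ± 0.27 (adjusted p = 0.0094), RPA2B (AT3G02920), a single-strand binding subunit, at -1.67 ± 0.33 (adjusted p = 0.0201), H3.1 AT1G09200 at -2.30 ± 0.41 (adjusted p = 0.0116), H3.1 AT5G10390 at -1.77 ± 0.31 (adjusted p = 0.0118), and an H4 probe set shared by AT5G59690 and another gene at -1.39 ± 0.29 (adjusted p = 0.0232). RPA2B and H4 were named after their values were seen. Within FG alone, the difference passed for H3.1 AT1G09200 at -3.96 ± 0.57 (adjusted p = 0.0149) and H3.1 AT5G10390 at -2.69 ± 0.44 (adjusted p = 0.0256). RPA2B read 101 to 142 on the LD ground arrays and 183 to 242 in space, and under the SD 159 to 264 on the ground and 69.1 (absent) to 198 in space. Heating came with the SD, so the daylength and the heating cannot be told apart in any of these values.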

How the results depend on the processing

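The calls of members rested on few arrays and low signals. Members called in WT under the LD (2) became 5 with log2(signal + 32) or spike-in scaling, 4 with no fold threshold, 0 with only the arrays compared, and 1 by the Student test (0 after Benjamini-Hochberg). In FG under the LD (1) they became 0 with no floor, 0 with only the arrays compared, 3 with spike-in scaling, 2 with array weights, and 0 by the Student test after Benjamini-Hochberg. With the genotypes averaged under the LD (2) they became 4 with no floor or spike-in scaling and 5 with log2(signal + 32) or no fold threshold. Under the SD, spike-in scaling gave 1 in WT and 1 in the average, and the Student test 1 in WT. For SD against LD in space, WT had 1 with array weights or by the Student test, and FG had 3 with array weights. With only the arrays of 2 groups, 4 arrays set the spread. The cause of the other shifts was not tested.

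Leaving out 1 array gave 0 to 2 members in WT and 0 to 2 in FG under the LD, 0 to 1 in the SD average, 0 to 1 for SD against LD in FG in space, 0 to 1 for the daylength difference in FG and 0 to 2 for its average. The count of members with all SD space arrays above the ground was 0 to 2 (chosen after seeing the data). Over all counts of members, 531 of the alternative values stayed within 1.5 times the reported one and 39 did not. In most comparisons the reported count was 0, and there a value stayed only if it was again 0. The tally therefore does not measure how stable the calls were in the comparisons that had any.

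Same-numbered arrays deviated together in some pairs of groups and not in others: over 28 pairs of groups, their deviations correlated at -0.28 to 0.50, and 14 were over 0.1. Replicate numbers were not fitted in the main model, and shared deviations among some groups are not excluded. With the replicate block the calls were again 2 in WT and 1 in FG under the LD and 0 in both under the SD.

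Among single log2 fold changes of members, 19 turned sign, all under the SD and none called: PCNA2 in WT (-0.02 with quantile normalization, -0.13 to 0.58 without each array in turn), TSO2 in WT (-0.08 with median centring, -0.08 with quantile normalization, -0.10 to 0.30 without each array), MCM3 in FG (-0.79 with no floor, -0.37 with log2(signal + 32)), PCNA1 in FG (-0.70 to 0.04 without each array), RNR1 in FG (-0.36 to 0.84 without each array, and -0.11 without FG-SD-gr replicate 1), MCM7 in the average (0.21 with spike-in scaling, -0.23 to 0.13 without each array), PCNA1 in the average (-0.03 with median centring, -0.01 with quantile normalization, -0.17 to 0.24 without each array), PCNA2 (0.21) and TSO2 (0.26) in the average with spike-in scaling.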
